A study of Mus musculus with 10 samples.

Results

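A set of 9 genes that mark glutamatergic neurons and the layers of the cerebral cortex was followed in RNA from sorted neuronal nuclei of adult mouse brains lacking *Mphosph8* or *Morc2a*. They are *Slc17a7*, *Slc17a6*, *Tbr1*, *Neurod2*, *Neurod6*, *Cux2*, *Rorb*, *Fezf2* and *Bcl11b*. The list was chosen for known function, with earlier results of these data known. It was taken from 54532 genes in the count files by matching symbols to Ensembl identifiers. The study asked what the loss of either gene does to transcription in neurons. MPP8, the product of *Mphosph8*, reads trimethylated lysine 9 of histone H3 as part of the HUSH silencing complex, and MORC2A works with that complex. There were 10 libraries of polyadenylated RNA, 5 from controls, 3 from Mphosph8Δ/Δn and 2 from Morc2aΔ/Δn mice.

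All mice were adults on the C57BL/6J background. Control replicates 1 to 3 were Mphosph8fl/fl without Nestin-Cre, and control replicates 4 and 5 were Morc2afl/fl without Nestin-Cre. The knockout libraries came from Mphosph8fl/fl and Morc2afl/fl mice that carried Nestin-Cre, which acts in neural progenitors and the neurons and glia that descend from them. No control carried Cre, so the presence of Cre and the loss of the gene cannot be told apart. Nuclei of the brain were selected by staining for NeuN, the product of *Rbfox3*, and the labels name no region, so a library mixes cortical neurons with neurons of all other regions. A lower value can then stem from fewer nuclei of a type or from less RNA in each, and these bulk libraries cannot tell them apart.

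The libraries held 6686038 to 10764555 counts, and the shallowest was control replicate 5. *Rbfox3* stood at 150 to 304 counts per 1000000 (CPM, on library sizes scaled by TMM) across the 10 libraries. The level of *Morc2a* was 140 ± 14.7 CPM in controls (SD, n = 5) and 219 ± 5.46 CPM in Morc2aΔ/Δn libraries (SD, n = 2), that of *Mphosph8* 38.7 ± 6.81 CPM in controls and 30.7 ± 10.3 CPM in Mphosph8Δ/Δn libraries (SD, n = 3). These counts cover whole genes, while Cre removes a single exon of each, so they do not check the deletion. The paper states that the resulting mRNA undergoes nonsense-mediated decay. *Morc2a* was at 0.64 on the log2 scale in Morc2aΔ/Δn (standard error 0.14, edgeR adjusted p = 0.0916), and at 180 ± 23.7 CPM in Mphosph8Δ/Δn (SD, n = 3). The reason for these levels was not tested. The paper measured both genes by qRT-PCR in sorted nuclei, and states that their loss was verified by qRT-PCR and immunoblot of whole brains. In mutant human stem cells it found more MORC2 without MPHOSPH8 and the reverse, and proposes a potential compensation. To some extent it saw the same in immunoblots of the mouse brains. Astrocyte, microglia and endothelial marker lists summed to at most 158, 43.8 and 4.97 CPM in any library, and the oligodendrocyte list, led by *Mbp*, to 487 to 867 CPM. No marker list had a gene that was at 0 in all 10 libraries.

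Glutamatergic neurons load glutamate into synaptic vesicles with a vesicular glutamate transporter. *Slc17a7*, which encodes VGLUT1, is the form typical of the adult cortex, hippocampus and cerebellar granule cells, and *Slc17a6*, which encodes VGLUT2, is typical of the thalamus, midbrain and brainstem. In the cortex, *Neurod2*, *Neurod6* and *Tbr1* encode transcription factors of excitatory neurons, *Cux2* marks upper layers, *Rorb* layer 4, and *Fezf2* and *Bcl11b* the deep-layer neurons that project out of the cortex. Several of these genes have a second home: *Bcl11b* is strong in striatal medium spiny neurons, *Rorb* is expressed in the thalamus, *Neurod2* in cerebellar granule cells, and *Tbr1* in the olfactory bulb.

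All 9 genes passed the filter on low counts, and none of them shares exonic bases with another gene in the GENCODE M21 annotation of GRCm38. Their read counts ranged from 106, for *Slc17a7* in control replicate 5, to 1379, for *Slc17a6* in Mphosph8Δ/Δn replicate 2. Together they took 0.0322% to 0.0427% of a library's counts.

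Per kilobase of annotated exon, *Neurod2* and *Slc17a6* had the highest levels in the controls, at 22.5 ± 5.35 and 19.8 ± 1.62 CPM per kb (SD, n = 5), and their ranges overlapped. *Neurod6* followed at 12.4 ± 2.35 CPM per kb, clear of *Slc17a6*, whose lowest control stood at 17.5 CPM per kb against a highest of 14.8 for *Neurod6*. *Fezf2* came next at 7.15 ± 1.57, *Bcl11b* at 6.19 ± 1.11 and *Tbr1* at 5.99 ± 1.02 CPM per kb. *Slc17a7* had 3.77 ± 0.841, *Rorb* 2.78 ± 0.430 and *Cux2* 2.57 ± 0.232 CPM per kb. From *Neurod6* down, each gene's range over the controls overlapped that of the next one in this order. RNA of the cortical form of the transporter was thus low beside that of the subcortical form in these whole-brain nuclei. Per kilobase, *Slc17a6* exceeded *Slc17a7* by 5.49 ± 1.39 times in the controls (SD, n = 5). The merged exon lengths, 5399 and 5392 bases, join all annotated transcripts, and the RNA is that of nuclei. The ratio is therefore not one of cellular mRNA or protein.

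**Figure D1:**
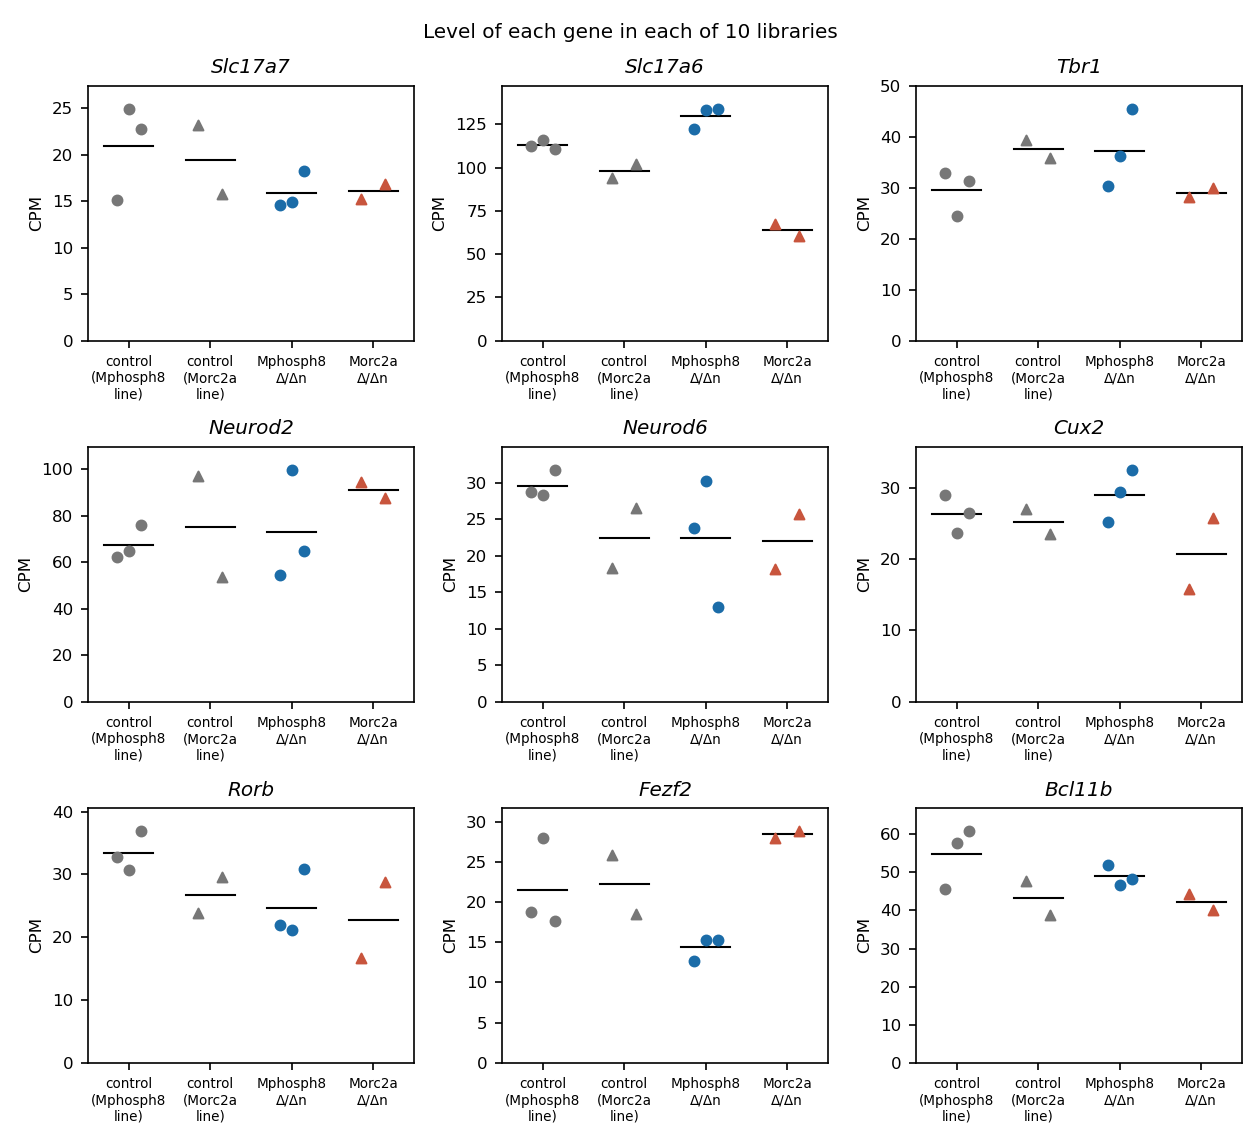
Level of each of the 9 genes in CPM (vertical axes from 0), with 1 point per library, circles for the Mphosph8 line, triangles for the Morc2a line, and a bar at each group's mean. *Slc17a6* lies at 122 to 134 CPM in Mphosph8Δ/Δn, 94.3 to 116 CPM in controls and 60.4 and 67.3 CPM in Morc2aΔ/Δn libraries, and *Fezf2* is lowest in the 3 Mphosph8Δ/Δn libraries.

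A gene was called changed at an adjusted p below 0.05 together with a fold change above 2, by edgeR's quasi-likelihood test over the 18573 genes that passed the filter. By that rule 0 of the 9 genes were called after the loss of *Mphosph8*, where the background over all genes tested was 0.0969% called higher and 0% called lower. Likewise 0 of 9 were called after the loss of *Morc2a*, with a background of 0.0377% called higher and 0.0215% called lower. Both counts sit at the background and are no result about the 9 genes. Without the demand for a fold change the counts were also 0. The unadjusted p of the same test was below 0.05 for 2 of the 9 genes in Mphosph8Δ/Δn (*Slc17a6* and *Fezf2*), against 5.67% of all genes, and for 1 in Morc2aΔ/Δn (*Slc17a6*), against 10.7%. DESeq2 called 0 of 9 in either comparison by the rule with a fold change above 2, and gave no adjusted p for 5 of them in Morc2aΔ/Δn.

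The size of change that the libraries leave room for was limited for most of the 9 genes. In Mphosph8Δ/Δn the 95% interval of the change lay within a 2-fold change in either direction for 8 of 9 genes, *Fezf2* being the exception. In Morc2aΔ/Δn this held for 7 of 9, the exceptions being *Slc17a6* and *Rorb*. The median log2 fold change of the 9 genes was -0.04 after the loss of *Mphosph8* (4 higher, 5 lower) and -0.28 after the loss of *Morc2a* (2 higher, 7 lower). Over all genes tested the medians were -0.01 and -0.01.

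**Figure D2:**
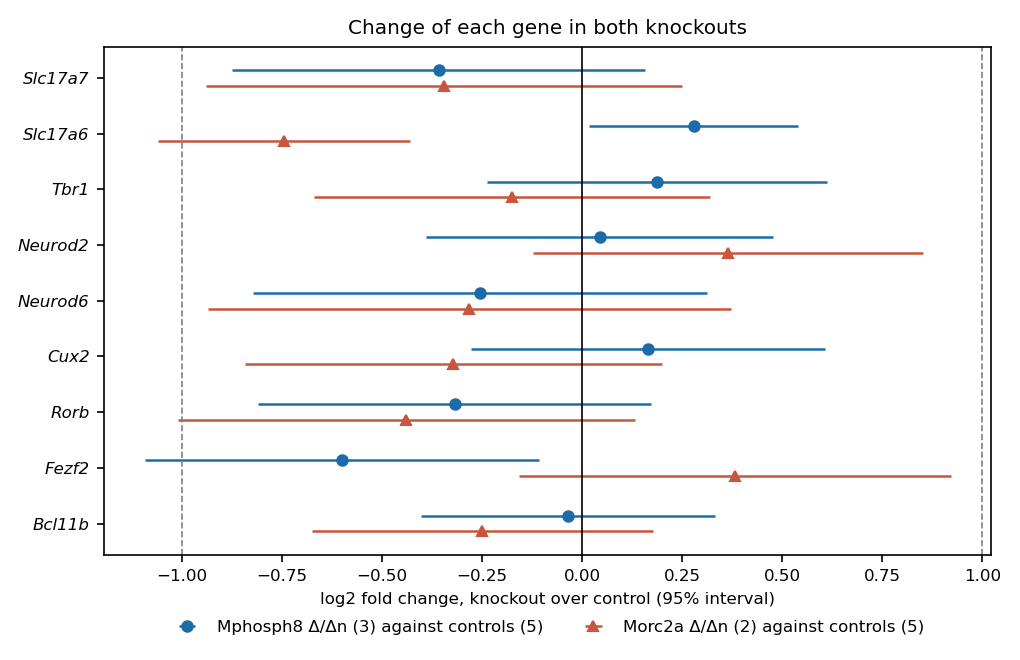
Log2 fold change of each gene over the 5 controls (horizontal axis) with its 95% interval from edgeR, circles for Mphosph8Δ/Δn and triangles for Morc2aΔ/Δn, with dashed lines at a 2-fold change. The intervals of *Slc17a6* lie on opposite sides of 0, at 0.28 and -0.75, and no other gene has both intervals clear of 0.

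The *Slc17a6* values of both knockouts lay outside the range of the 5 controls, on opposite sides. Its level was 112, 116 and 111 CPM in the Mphosph8-line controls and 94.3 and 102 CPM in the Morc2a-line controls. The Mphosph8Δ/Δn libraries had 122, 133 and 134 CPM, and the Morc2aΔ/Δn libraries had 67.3 and 60.4 CPM. Every Mphosph8Δ/Δn library lay above every control, which was so for 2.31% of all genes, and both Morc2aΔ/Δn libraries lay below every control, which was so for 7.8%. On the log2 scale the change was -0.75 in Morc2aΔ/Δn (standard error 0.15, 95% interval -1.06 to -0.43), a level 0.597 times that of the controls. This was the 31st gene of all by p in that comparison, at an edgeR adjusted p of 0.0652, just outside the threshold of 0.05. The change in Mphosph8Δ/Δn was 0.28 (standard error 0.12, 95% interval 0.02 to 0.54, adjusted p = 0.872).

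The adjusted p of *Slc17a6* in Morc2aΔ/Δn moved across 0.05 with the processing, while its fold change moved little. It was 0.0447 without scaling beyond library size, 0.0127 without a filter, 0.0331 with at least 10 counts asked of every library, 0.000115 by DESeq2 and 0.0433 without control replicate 5. Leaving out Morc2aΔ/Δn replicate 2 gave 0.365 and leaving out replicate 1 gave 0.134, each leaving 1 library in the group. Over all 19 alternatives the log2 fold change ran from -0.82 to -0.62, never past a 2-fold change. The settings that took its adjusted p below 0.05 also put more genes of all below 0.05, at any fold change. In the main analysis 16 genes were below 0.05, against 33 without scaling and 236 of 30885 without a filter. There were 61 with at least 10 counts in every library, 336 by DESeq2 and 54 without control replicate 5.

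Set against Morc2a-line controls alone, *Slc17a6* was lower in Morc2aΔ/Δn at -0.62 on the log2 scale (standard error 0.16, 95% interval -0.97 to -0.27, adjusted p = 0.252), with both knockout libraries below both controls as for 17.9% of all genes. In Mphosph8Δ/Δn the same-line change was 0.20 (standard error 0.13, 95% interval -0.08 to 0.48, adjusted p = 0.971), with the 3 libraries above the 3 controls as for 6.13% of all genes. The difference between both effects, tested as an interaction, was 0.82 on the log2 scale (standard error 0.21, 95% interval 0.38 to 1.26). Its adjusted p was 0.321 by edgeR, where 0% of all genes were called, and 0.0319 by DESeq2, where 64 genes fell below 0.05.

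*Slc17a7* was similar in both knockouts, and both comparisons use the same 5 controls. The control libraries had 15.2, 24.9, 22.7, 23.2 and 15.7 CPM, in the order of their numbers, so that replicates 1 and 5 stood below the other three. Its values were 14.6, 14.9 and 18.2 CPM in Mphosph8Δ/Δn and 15.2 and 16.8 CPM in Morc2aΔ/Δn, around the level of the 2 lower controls. The log2 fold changes were -0.36 (95% interval -0.87 to 0.16, adjusted p = 0.967) and -0.35 (95% interval -0.94 to 0.25, adjusted p = 0.729). As a consequence of both genes' values, the ratio of *Slc17a6* to *Slc17a7* per kilobase was 7.34 to 8.94 in Mphosph8Δ/Δn, 4.07 to 7.40 in controls and 3.58 and 4.41 in Morc2aΔ/Δn, so only 1 library of Mphosph8Δ/Δn lay within the control range.

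**Figure D3:**
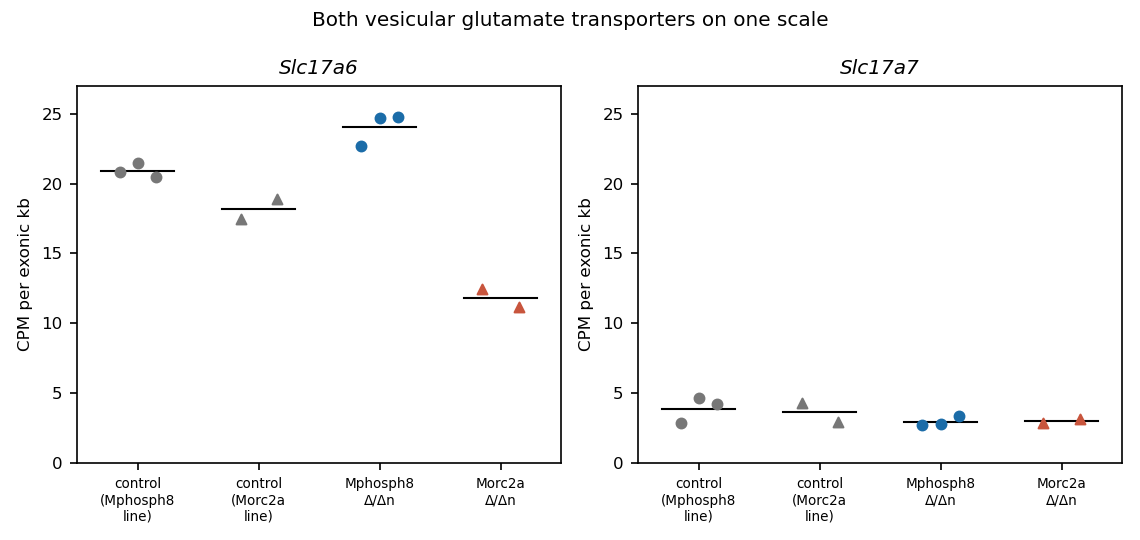
CPM per kilobase of annotated exon for *Slc17a6* (left) and *Slc17a7* (right) in each library, on the same vertical scale from 0, with bars at group means and symbols by floxed line. *Slc17a6* runs from 11.2 to 24.8 and *Slc17a7* from 2.71 to 4.61 CPM per kb.

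Both transporter genes lie on the plus strand of chromosome 7, *Slc17a7* at 45163949 to 45176142 and *Slc17a6* at 51622006 to 51671119 (GRCm38). The 250 bases before their RefSeq transcription starts are printed because the contrast of the transporters is the one the results turn on. They come from RefSeq promoter windows of GRCm38.p6, chr7:45163671-45163920 and chr7:51621580-51621829, and overlap no annotated exon. *Slc17a6* has a further RefSeq start that is not printed. Capitals mark the E-box CANNTG, the motif class bound by basic helix-loop-helix factors such as NEUROD2 and NEUROD6.
Slc17a7: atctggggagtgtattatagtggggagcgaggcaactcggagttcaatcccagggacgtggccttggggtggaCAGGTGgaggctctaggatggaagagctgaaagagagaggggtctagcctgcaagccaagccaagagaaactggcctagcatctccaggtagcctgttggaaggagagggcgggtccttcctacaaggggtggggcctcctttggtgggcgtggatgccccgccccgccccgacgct
Slc17a6: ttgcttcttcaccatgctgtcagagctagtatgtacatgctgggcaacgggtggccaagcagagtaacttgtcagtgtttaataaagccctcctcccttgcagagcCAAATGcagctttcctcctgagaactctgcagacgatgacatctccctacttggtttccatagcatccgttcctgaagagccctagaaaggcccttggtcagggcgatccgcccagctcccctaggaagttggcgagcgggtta
Each holds 1 E-box. Windows of 300 bases around the start, 250 before and 50 after, were found for all 9 genes (12 windows, since *Slc17a6*, *Cux2* and *Rorb* have 2 each). On either strand an E-box occurred in 10 of the 12 and in 72.3% of 32851 windows of all genes. The special case CAGATG occurred in 3 of 12 against 17.2%, CAGCTG in 0 of 12 against 16.3%, and AGGTCA, the half-site of ROR receptors, in 0 of 12 against 16.3%. These are matches of letters and not measured binding sites.

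The 3 transcription factors of cortical excitatory neurons had changes within the spread between libraries. *Neurod2* ranged from 53.5 CPM (control replicate 5) to 97.1 CPM (control replicate 4) within the controls alone. It stood at 54.3, 99.7 and 64.8 CPM in Mphosph8Δ/Δn and at 94.6 and 87.7 CPM in Morc2aΔ/Δn, and its log2 fold changes were 0.04 (95% interval -0.39 to 0.48) and 0.36 (95% interval -0.12 to 0.85). All knockout values but that of Mphosph8Δ/Δn replicate 2 lay within the control range.

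*Neurod6* had 28.7, 28.3 and 31.7 CPM in the Mphosph8-line controls, and 18.3 and 26.6 CPM in the Morc2a-line controls. Mphosph8Δ/Δn libraries spread from 13.0 CPM in replicate 3 to 30.2 CPM in replicate 2, with 23.8 CPM in replicate 1, and Morc2aΔ/Δn libraries had 18.2 and 25.7 CPM. This was the widest spread within the Mphosph8Δ/Δn group among the 9 genes, with a coefficient of variation of 38.9%. Its log2 fold changes were -0.26 (95% interval -0.82 to 0.31) and -0.28 (95% interval -0.94 to 0.37), and the first turned to 0.02 without Mphosph8Δ/Δn replicate 3. The second was -0.051 without Morc2aΔ/Δn replicate 1 and -0.56 without replicate 2.

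*Tbr1* had 33.0, 24.6 and 31.4 CPM in the Mphosph8-line controls and 39.5 and 35.9 CPM in the Morc2a-line controls. It reached 30.3, 36.3 and 45.5 CPM in Mphosph8Δ/Δn and 28.2 and 30.0 CPM in Morc2aΔ/Δn libraries. The knockout libraries overlapped the 5 controls, with log2 fold changes of 0.19 (95% interval -0.24 to 0.61) and -0.18 (95% interval -0.67 to 0.32). Within the Morc2a line both knockout libraries lay below both controls, as for 17.9% of all genes. The change there was -0.38 (95% interval -0.94 to 0.19, adjusted p = 0.729).

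Of the layer genes, those of the upper layers had intervals that covered 0 in both comparisons. *Cux2* had 29.0, 23.7, 26.5, 27.1 and 23.5 CPM in the 5 controls, with a coefficient of variation of 9.01%. Mphosph8Δ/Δn libraries had 25.2, 29.5 and 32.5 CPM and Morc2aΔ/Δn libraries 15.8 and 25.7 CPM, of which the first lay below every control. The log2 fold changes were 0.16 (95% interval -0.28 to 0.61) and -0.32 (95% interval -0.84 to 0.20), and the second was -0.0086 without Morc2aΔ/Δn replicate 1.

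*Rorb*, an orphan nuclear receptor, had 32.7, 30.7, 36.9, 23.9 and 29.6 CPM in the 5 controls. It was at 21.9, 21.2 and 30.9 CPM in Mphosph8Δ/Δn and at 16.6 and 28.7 CPM in Morc2aΔ/Δn, so that 2 of 3 and 1 of 2 knockout libraries were below the control range. Its log2 fold changes were -0.32 (95% interval -0.81 to 0.17) and -0.44 (95% interval -1.01 to 0.13), and the second was -0.095 without Morc2aΔ/Δn replicate 1. Morc2aΔ/Δn replicate 1 was thus the lowest of the 10 libraries for both upper-layer genes.

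*Fezf2*, which specifies corticospinal and other subcortical projection neurons, was the other gene whose knockout libraries stood apart from the controls. Controls had 18.8, 28.0, 17.7, 25.8 and 18.6 CPM. Mphosph8Δ/Δn libraries had 12.6, 15.3 and 15.2 CPM, all below every control, as for 2.26% of all genes. Its change of -0.60 on the log2 scale (standard error 0.23, 95% interval -1.09 to -0.11) had an unadjusted edgeR p of 0.0198 and an adjusted p of 0.810. Against the 3 controls of the same line it was -0.58 (standard error 0.26, adjusted p = 0.879), again with no overlap, as for 6.61% of all genes.

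In Morc2aΔ/Δn *Fezf2* had 28.0 and 28.8 CPM, at the top of the control range, whose highest library also had 28.0 CPM. In this knockout 0 of 9 genes lay above every control in both libraries, against 7.59% of all genes. The log2 fold change was 0.38 (95% interval -0.16 to 0.92, adjusted p = 0.644), and against the Morc2a line alone 0.35 (95% interval -0.32 to 1.02), where both libraries lay above both controls, as for 18.1% of all genes. The difference between the effects of the 2 knockouts was -0.93 on the log2 scale (95% interval -1.80 to -0.07), with an adjusted p of 0.581.

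*Fezf2* lies on the minus strand of chromosome 14 at 12342094 to 12348189. Its window before the RefSeq start reaches into an annotated exon, and the 156 bases outside it, chr14:12345960-12346115 in GRCm38.p6, are given in the direction of transcription for comparison with the transporter genes. Unlike those of the transporter genes, these bases lie within the span of the annotated gene. *Fezf2* holds 20 CG dinucleotides in the window of 300 bases, where the median over all genes is 7, and no E-box.
Fezf2: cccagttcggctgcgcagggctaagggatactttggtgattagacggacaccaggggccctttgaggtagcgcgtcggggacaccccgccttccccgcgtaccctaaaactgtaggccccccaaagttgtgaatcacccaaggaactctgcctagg

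*Bcl11b*, which encodes the zinc finger factor CTIP2, acts with *Fezf2* in deep-layer neurons but did not share its pattern of levels. The controls had 45.7, 57.7, 60.8, 47.7 and 38.9 CPM. It was at 52.0, 46.8 and 48.3 CPM in Mphosph8Δ/Δn, in the middle of the control range, and at 44.4 and 40.1 CPM in Morc2aΔ/Δn, in its lower part. The log2 fold changes were -0.04 (95% interval -0.40 to 0.33) and -0.25 (95% interval -0.68 to 0.18).

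The 2 floxed lines of the controls were compared because both enter the control group. By the same rule 0 of 9 genes were called between the Morc2a-line and the Mphosph8-line controls, with a background of 0.0538% called higher and 0.0754% called lower in the Morc2a line. *Slc17a6*, *Neurod6* and *Rorb* lay below in every Morc2a-line control, as did 15.1% of all genes, and *Tbr1* lay above, as did 14.1%. The smallest adjusted p was 0.656, for *Bcl11b* at a log2 difference of -0.34 (95% interval -0.77 to 0.10). For *Slc17a6* the difference between lines was -0.20 (95% interval -0.52 to 0.11), in the direction of its lower value in Morc2aΔ/Δn.

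Other genes of excitatory neurons were examined in 5 lists, and 0 of them were called in either knockout. Over all genes tested 0.0969% were called higher and 0% lower after Mphosph8 loss, and 0.0377% and 0.0215% after Morc2a loss. The count of 0 sits at this background and is no result about the lists. Of 24 other cortical layer genes, 23 passed the filter, with 11 higher and 12 lower in Mphosph8Δ/Δn (median log2 fold change -0.03) and 7 higher and 16 lower in Morc2aΔ/Δn (median -0.10). By unadjusted p the first of them were *Crym*, at -0.51 in Mphosph8Δ/Δn (standard error 0.17, adjusted p = 0.752), and *Parm1*, at -0.44 in Morc2aΔ/Δn (standard error 0.19, adjusted p = 0.415). The 12 other forebrain excitatory genes were split 6 higher and 6 lower in Mphosph8Δ/Δn and 5 higher and 7 lower in Morc2aΔ/Δn, with medians of -0.04 and -0.13. *Dkkl1* was at 0.66 (standard error 0.22, adjusted p = 0.764) and *Rtn4r*, a receptor for myelin inhibitors of axon growth, at -0.47 (standard error 0.18, adjusted p = 0.810) in Mphosph8Δ/Δn.

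Hippocampal principal neuron genes, 10 in all, had medians of -0.03 in Mphosph8Δ/Δn (4 higher, 6 lower) and 0.03 in Morc2aΔ/Δn (6 higher, 4 lower). The 2 genes with the lowest p in this list were, both in Morc2aΔ/Δn, *C1ql2* at -1.52 (standard error 0.44, adjusted p = 0.204) and *Prox1* at -1.58 (standard error 0.62, adjusted p = 0.361). *Prox1* was at 10.7 ± 2.96 CPM in controls (SD, n = 5) and 3.58 ± 3.41 CPM in Morc2aΔ/Δn (SD, n = 2), and *C1ql2* at 45.4 ± 23.2 and 15.9 ± 3.37 CPM. The Morc2aΔ/Δn libraries overlapped the widely spread controls for *C1ql2* and lay below them for *Prox1*, as for 7.8% of all genes. Other genes of the dentate gyrus were on the other side of 0 in Morc2aΔ/Δn, *Dsp* at 0.98 (standard error 1.32, adjusted p = 0.856) and *Lct* at 0.89 (standard error 0.61, adjusted p = 0.649). Both were low in controls, *Dsp* at 1.88 ± 2.50 and *Lct* at 5.02 ± 3.32 CPM (SD, n = 5). The 12 glutamate receptor and postsynaptic genes had medians of -0.05 and -0.04. The first by p among them were the AMPA receptor subunits *Gria4* at 0.29 (standard error 0.13, adjusted p = 0.446) and *Gria2* at 0.19 (standard error 0.11, adjusted p = 0.586), both in Morc2aΔ/Δn.

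A list of 14 genes of thalamic and midbrain glutamatergic neurons was taken for regions where *Slc17a6* is typical. Of the 13 that passed the filter, 8 were higher and 5 lower in Mphosph8Δ/Δn (median 0.15), and 4 were higher and 9 lower in Morc2aΔ/Δn (median -0.40). Their summed level was 162 to 199 CPM in controls, 176 to 210 CPM in Mphosph8Δ/Δn and 133 and 160 CPM in Morc2aΔ/Δn. Both Morc2aΔ/Δn sums lay below the control range, as *Slc17a6* did, but that of replicate 2 only narrowly, at 160 against 162 CPM. Taken singly, 7.8% of all genes lay below every control in both libraries. *Tcf7l2*, a factor of thalamic neurons, was at -0.48 (standard error 0.20, adjusted p = 0.391), and *Pou4f2*, at only 2.15 ± 0.840 CPM in controls (SD, n = 5), at -2.18 (standard error 1.12, adjusted p = 0.512). The part of these neurons in the level of *Slc17a6* was not tested.

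The summed levels of genes of neurons in general and of GABAergic neurons also lay below the controls in the Morc2aΔ/Δn libraries. Of 8 pan-neuronal genes, 6 were lower in Morc2aΔ/Δn, their sum was 3557 and 4181 CPM against 4480 to 5155 CPM in controls, and *Snap25* was at -0.47 (standard error 0.09, adjusted p = 0.0528) and *Tubb3* at -0.60 (standard error 0.16, adjusted p = 0.166). Higher in Morc2aΔ/Δn were *Map2* at 0.33 (standard error 0.14, adjusted p = 0.419) and *Rbfox3* at 0.19 (standard error 0.19, adjusted p = 0.792). *Snap25* and *Syt1* made up much of the pan-neuronal sum, with means of 1916 and 1222 CPM in controls and 1379 and 870 CPM in Morc2aΔ/Δn. Of 10 GABAergic neuron genes, 9 were lower, with sums of 1309 and 1613 CPM against 1704 to 2176 CPM, and *Sst* was at -0.51 (adjusted p = 0.248) and *Npy* at -0.50 (adjusted p = 0.314). Levels below every control in both Morc2aΔ/Δn libraries were thus found for these sums as well as for *Slc17a6*. Taken singly, 7.8% of all genes lay so, and no such share was taken for sums. The oligodendrocyte sums, 599 and 487 CPM, lay below the control range of 666 to 840 CPM too. In Mphosph8Δ/Δn the sums of these lists, 4558 to 4830 and 1953 to 2073 CPM, lay within the control range, while every *Slc17a6* value lay above it. The part of these differences in the members' values was not tested.

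Marker levels of other brain regions also differed between libraries. The 10 cerebellar granule cell genes summed to 105.5 to 159 CPM in control replicates 1, 2, 3 and 5 but to 621 CPM in control replicate 4, to 377, 546 and 175 CPM in Mphosph8Δ/Δn and to 107 and 99.2 CPM in Morc2aΔ/Δn. Within that list *Gabra6* was at -5.98 (standard error 1.93, adjusted p = 0.263) and *Cbln3* at -5.59 (standard error 1.90, adjusted p = 0.289) in Morc2aΔ/Δn, where their means were 0.373 and 0.681 CPM. Their control means of 23.9 ± 44.5 and 33.3 ± 65.1 CPM (SD, n = 5) rested on control replicate 4, with 103.5 and 149.7 CPM. Without that library, left out after its values were seen, the control means were 3.96 ± 1.56 and 4.18 ± 2.34 CPM (SD, n = 4). Control replicate 4 and Mphosph8Δ/Δn replicate 2, the richest in these genes, also had the highest *Neurod2*, 97.1 and 99.7 CPM. Mphosph8Δ/Δn replicate 1, with a granule cell sum of 377 CPM, had only 54.3 CPM of *Neurod2*. Morc2aΔ/Δn replicates 1 and 2 had 94.6 and 87.7 CPM of it at granule cell sums of 107 and 99.2 CPM, near the 105.5 CPM of the lowest control. Of 9 striatal medium spiny neuron genes tested, 9 were lower in Mphosph8Δ/Δn and 8 in Morc2aΔ/Δn, and their sums, 1541 to 1917 and 1614 to 2040 CPM, lay below the control range of 2161 to 2353 CPM. Taken singly, 2.26% of all genes lay below every control in Mphosph8Δ/Δn and 7.8% in Morc2aΔ/Δn. *Pde10a* was at -0.53 in Mphosph8Δ/Δn (standard error 0.11, adjusted p = 0.0853) and *Penk* at -0.40 in Morc2aΔ/Δn (standard error 0.14, adjusted p = 0.296). *Bcl11b*, which striatal neurons also express, stayed within the control range in all 5 knockout libraries. What striatal and cerebellar nuclei contributed to the 9 genes was not tested.

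**Figure D4:**
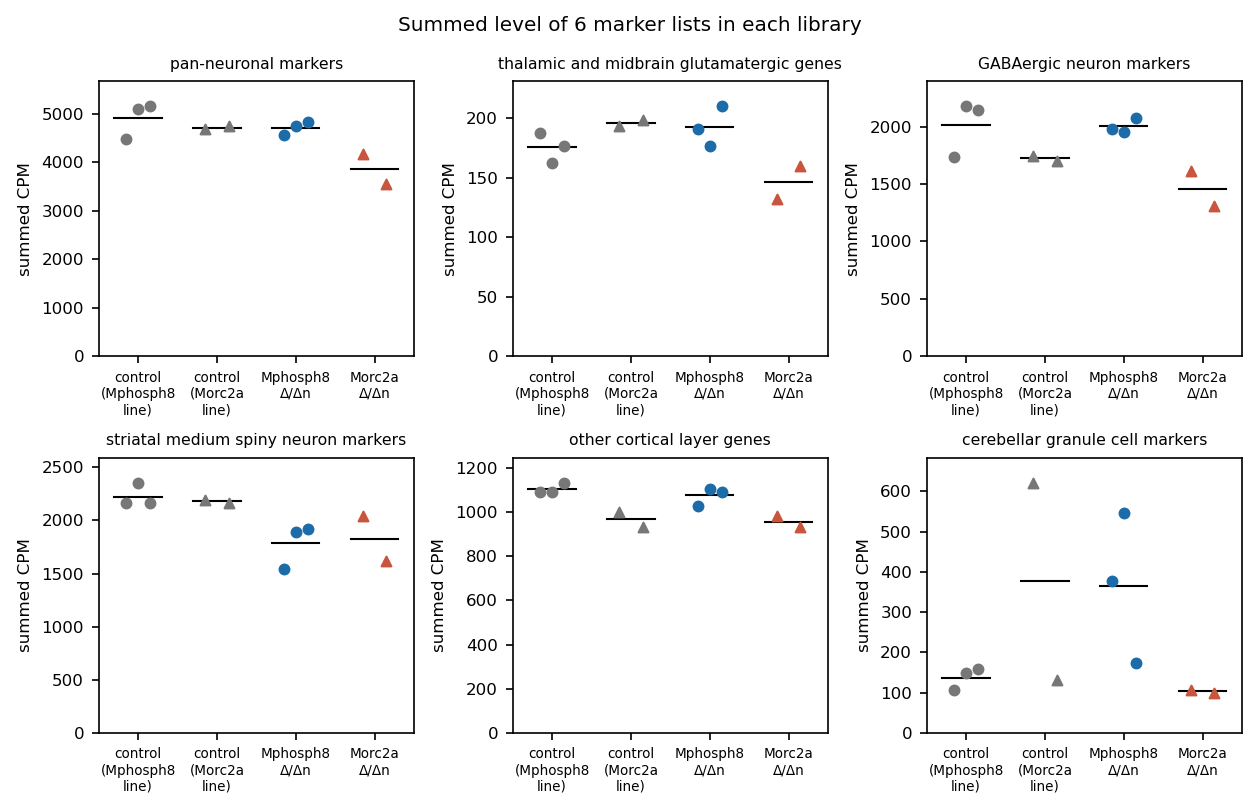
Summed CPM of 6 lists of marker genes in each library (vertical axes from 0), with 1 point per library, bars at group means and symbols by floxed line. Both Morc2aΔ/Δn libraries lie below all controls for the pan-neuronal, thalamic and midbrain, GABAergic and striatal lists, and control replicate 4 stands at 621 CPM for granule cell genes. Of all single genes, 7.8% lay below every control in both Morc2aΔ/Δn libraries.

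Glial and vascular lists had 0 called genes of 5 astrocyte, 5 oligodendrocyte, 3 oligodendrocyte precursor, 5 microglia and 3 endothelial genes tested. Over all genes at most 0.0969% were called in either direction in either knockout, so this count sits at the background. Their median log2 fold changes in Mphosph8Δ/Δn were 0.11, 0.11, 0.41, -0.43 and 0.91, and in Morc2aΔ/Δn -0.06, -0.05, 0.05, -0.54 and -1.25, in that order. By lowest p the genes were *Mbp*, the myelin basic protein gene, at -0.58 in Morc2aΔ/Δn (standard error 0.16, adjusted p = 0.197) and *Mobp* at 0.35 in Mphosph8Δ/Δn (standard error 0.16, adjusted p = 0.872) for oligodendrocytes. For astrocytes they were *Aldh1l1* at -0.58 in Morc2aΔ/Δn (adjusted p = 0.638) and *Slc1a3* at 0.18 in Mphosph8Δ/Δn (adjusted p = 0.985), and for precursors *Olig2* at 0.86 in Mphosph8Δ/Δn (adjusted p = 0.915) and *Pdgfra* at -0.50 in Morc2aΔ/Δn (adjusted p = 0.865). For microglia they were *Csf1r* at -0.54 in Morc2aΔ/Δn (adjusted p = 0.584) and *Aif1* at -1.27 in Mphosph8Δ/Δn (adjusted p = 0.972). The endothelial genes *Cldn5* and *Flt1* had means of 0.529 and 0.378 CPM in controls, with *Cldn5* at 0 in both Morc2aΔ/Δn libraries and *Flt1* at 0.943 CPM in Mphosph8Δ/Δn. None of these changes passed the adjusted threshold.

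Genes with the most similar profile over the 10 libraries were listed for each of the 9, among 12504 genes with a mean of at least 5 CPM, by Pearson's r of log2 CPM. For *Slc17a6* they were *Hsp90b1* (r = 0.964), a chaperone of the endoplasmic reticulum, *Slc2a13* (0.961) and *Tmem30a* (0.953). For *Slc17a7* they were *Zfand5* (0.961), *Rhob* (0.891) and *Exosc2* (0.889), and for *Fezf2* *Csnk1a1* (0.919), *Mtmr14* (0.912) and *Stard10* (0.903). *Bcl11b* was closest to *Gad1* (0.941), the GABA-synthesizing enzyme, followed by the layer 6 gene *Syt6* (0.930) and by *Ak1* (0.924). *Neurod6* was closest to *Cux1* (0.910), *Egr2* (0.910) and *Fam135b* (0.908), *Neurod2* to *Plod3* (0.955), *Bmp1* (0.929) and *Cdc34* (0.920), and *Tbr1* to *Ntpcr* (0.936), *Gclm* (0.903) and *Nme4* (0.898). *Cux2* went with *Gm12216* (0.956), *Fam198a* (0.945) and *Hspb6* (0.945), and *Rorb* with *L3mbtl2* (0.888), *Tns3* (0.885) and *Srp68* (0.884). No member was among the 3 closest genes of another member. With 10 libraries and 12504 genes, values of this size are the top of a long list and are given as a description; the libraries share groups and floxed lines.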

How the data were processed

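RNA of NeuN-sorted nuclei was poly(A)-enriched and sequenced as single short reads. The authors trimmed reads with Trim Galore 0.5.0, removed those aligning to abundant sequences with Bowtie2 2.3.4.1, aligned the rest to GRCm38 with STAR, and assigned reads to Ensembl genes by featureCounts (Subread 1.6.2). What they deposited are whole-number read counts for 54532 genes in each of 10 libraries, not normalized in any way. Whether counting used the strand is not given in the sources used here.

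Counts were fitted with edgeR 4.0.16 in R 4.3.3 (filterByExpr on the 3 groups, 18573 genes kept, TMM scaling, 1 quasi-likelihood fit of all 10 libraries, common dispersion 0.141), with Benjamini-Hochberg adjustment over all genes tested. Contrasts between lines and the interaction came from a fit of 4 groups, controls being split by floxed line, and the interaction was called at an adjusted p below 0.05. Standard errors are the change divided by the square root of F, and intervals are 95% intervals. CPM use the scaled library sizes, and levels per kilobase use merged exon lengths of GENCODE M21. Tested on simulated data with 200 genes changed 4-fold, the fit recovered 90.5% of them for Mphosph8 loss (17515 genes) and 70% for Morc2a loss (17524 genes).

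Alternatives were median-of-ratios size factors, no scaling, no filter, at least 10 counts in every library, DESeq2 1.42.0, limma-voom (limma 3.58.1), same-line controls, only the groups compared, a replicate block, no minimum fold change, plain CPM, and leaving out each library. The labels do not say whether libraries come from separate animals, so p-values measure the spread between libraries. Replicate pairs of a group differed by more than sampling noise (chi-square of at least 8.17 per degree of freedom), so each library counted once. The members and lists were chosen with earlier results of these data known. Named beside the 9 genes are the 2 genes of each list with the lowest unadjusted p, *Rbfox3* and the targeted genes as checks, and the 3 genes with the highest correlation with each member. *Dsp*, *Lct*, *Map2* and *Syt1* were named after their values were seen. Promoter windows are those of RefSeq for GRCm38.p6.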

Additional observations from a re-analysis of the deposited data

Results flagged for a closer look

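*Slc17a6* was marked because every Mphosph8Δ/Δn library lay above all 5 controls and both Morc2aΔ/Δn libraries lay below them. The effects of the 2 knockouts, each set against same-line controls, differed by 0.82 on the log2 scale, and this difference had an adjusted p of 0.321 by edgeR. In all, 54 of 18573 genes (0.291%) lay on opposite sides of the control range in this way, 25 of them in the direction of *Slc17a6*. None of the 9 genes had a control library that stood apart from the other 4 by Dixon's criterion.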

How the results depend on the processing

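No alternative brought a member past the rule of a fold change above 2: the counts stayed at 0 of 9 for both knockouts and for the control lines under every setting tried. The count for the difference between the knockout effects went from 0 to 1 under DESeq2, with *Slc17a6*, and stayed at 0 under the other 15 settings. The adjusted p of *Slc17a6* in Morc2aΔ/Δn fell below 0.05 under 5 settings, as given above. Of 639 recomputed fold changes, 612 kept direction and side of the threshold (5 of these by DESeq2 with no adjusted p), 6 gained an adjusted p below 0.05 (all of *Slc17a6*) and 21 reversed, none of them with an interval clear of 0 in the main analysis.

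With 1 library left out, the log2 fold change after Mphosph8 loss ran from -0.24 to 0.22 for *Neurod2*, -0.53 to 0.021 for *Neurod6* and -0.11 to 0.044 for *Bcl11b*. After Morc2a loss it ran from -0.89 without Morc2aΔ/Δn replicate 2 to -0.095 without replicate 1 for *Rorb*, and with the same 2 omissions from -0.73 to -0.0086 for *Cux2* and from -0.56 to -0.051 for *Neurod6*. For the control lines it ran from -0.41 to 0.15 for *Slc17a7*, -0.34 to 0.52 for *Neurod2*, -0.17 to 0.043 for *Cux2* and -0.21 to 0.29 for *Fezf2*. For the difference between the knockout effects it ran from -0.41 to 0.15 for *Slc17a7*, -0.65 to 0.22 for *Neurod2*, -0.56 to 0.24 for *Rorb* and -0.27 to 0.031 for *Bcl11b*. A group left with 1 library was assumed to vary like the others. The cause was not tested in any of these cases.

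Residuals of libraries with the same replicate number correlated at -0.03 to 0.04, those with other numbers at -0.06 to 0.04. Controls 1 and 2, which share their numbers with the Morc2aΔ/Δn libraries, are of the Mphosph8 line. This check therefore cannot show whether Morc2a-line libraries are paired, and the paper states that littermates were compared. With a replicate block 0 of 9 genes were called, and *Tbr1* in Morc2aΔ/Δn turned to 0.074. Control replicates 4 and 5 share their numbers with no other library, so the blocked Morc2a effect draws on Mphosph8-line controls only. Against same-line controls the change of *Tbr1* was -0.38. The Morc2a counts over all genes with the block carry the same limit. The block could not be fitted for the contrasts between lines. Over all genes, calls after Mphosph8 loss numbered 18 higher and 0 lower in the main analysis, 59 and 28 without a filter and 32 and 11 by DESeq2, and after Morc2a loss 7 and 4, 40 and 58, and 11 and 16. Counts also moved by over 1.5 times after Mphosph8 loss with same-line controls (10 higher) and with the block (12 higher), and after Morc2a loss with the block (27 and 19), with at least 10 counts in every library (12 and 12), without scaling (9 and 8), with only the groups compared (3 and 3) and by limma-voom (15 and 1). Between control lines 10 higher and 14 lower became 80 and 74 without a filter, 41 and 55 by DESeq2 and 27 and 22 with only the groups compared, and for the difference between the knockout effects 0 became 96 without a filter and 64 by DESeq2. With 1 library left out, calls numbered 6 to 21 higher after Mphosph8 loss and 2 to 14 higher and 1 to 18 lower after Morc2a loss.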
